A study of Mus musculus with 6 samples.

Results

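The aminoacyl-tRNA synthetases were followed as a family of 37 genes among the 46983 genes of the count table, 20 of them cytosolic and 17 mitochondrial. Members were all protein-coding mouse genes whose symbol is an amino acid letter followed by ars or ars2, together with Eprs, Farsa and Farsb, and a symbol ending in 2 placed a gene in the mitochondrial set. The rule used names alone and no measured value. All 37 passed the filter on low counts.

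The samples were bone marrow derived macrophages, grown in culture from marrow precursors, of wild-type (WT) mice and of mice without astrocyte elevated gene-1 (AEG-1 KO). AEG-1, also called metadherin, is a protein of the endoplasmic reticulum and nucleus encoded by Mtdh. Both groups were of strain C57BL/6 and received no treatment. Marrow from the femur was cultured for 7 days with 10% serum and 20% medium conditioned by L929 cells, which supply the growth factor that macrophages need. There were 3 AEG-1 KO and 3 WT libraries, and as the labels do not say whether the 3 came from separate animals, p-values measure the spread between libraries, which may be technical. The labels state neither the deleted part of Mtdh nor the age of the mice.

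Each synthetase joins 1 kind of amino acid to its transfer RNAs, the step that supplies the ribosome with building blocks. Cytosolic enzymes serve the ribosomes of the cytoplasm, mitochondrial enzymes are made in the cytoplasm and imported to serve the mitochondrial ribosome, and Gars and Kars each encode both forms from 1 gene. Some cytosolic enzymes are bound together in the multi-tRNA synthetase complex. The genes of many cytosolic enzymes are known targets of ATF4, the transcription factor of the amino acid response, which binds a composite element shared by C/EBP and ATF proteins.

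Letters of that element (TGATGNAA on either strand, where N is any base) were looked for in the 250 bases before the RefSeq start of each gene (GRCm38.p6). Of the 3 members that held them, Gars and Tars are shown because they place the element near the start of a gene that fell in AEG-1 KO and of 1 close to the threshold. The third, Aars, which also fell, held its match 112 bases before the start. The matched letters are in capitals and are the reverse complement of the letters searched.

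Gars: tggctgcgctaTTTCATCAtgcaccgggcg

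Tars: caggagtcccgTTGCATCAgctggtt

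The stretch of Gars, the glycine enzyme, lies at chr6:55037960-55037989 on the plus strand, with the match 30 bases before the start. That of Tars, the threonine enzyme, lies at chr15:11399659-11399684 on the minus strand, with the match 15 bases before the start. The 3 were all the matches among the 27 members with a searched window (11.1%), beside 249 of 9873 tested protein-coding genes (2.52%). They were 3 of the 13 cytosolic members with a window and 0 of the 14 mitochondrial ones, and 2 of the 7 cytosolic members with a window that fell in AEG-1 KO. A match describes letters and does not show binding. No window was used for Cars, Wars, Vars, Lars, Nars, Rars, Hars, Hars2 and Pars2.

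Libraries held 42548170 to 58947230 counts. The targeted gene, Mtdh, had 11560, 14849 and 11806 reads in the WT libraries and 15, 22 and 15 in the AEG-1 KO libraries (log2 fold change −9.37, edgeR adjusted p = 6.62e-11). All 10 macrophage markers were detected, with summed levels of 17868 to 18330 CPM (library-scaled counts per 1000000) in WT and 18407 to 19048 CPM in AEG-1 KO. Of these 10, Csf1r, Mertk, Mrc1 and Cd14 were higher and Adgre1 was lower in AEG-1 KO. Of 43 tested markers of other cell types, 18 were higher and 1 was lower, beside 3.31% higher and 3.04% lower of all genes tested. These calls were made at an edgeR adjusted p under 0.05, the threshold for calling a gene changed throughout. Summed levels in WT and AEG-1 KO were 61.5 to 67.5 and 93.7 to 95.7 CPM for monocyte and progenitor markers (5 of 9 higher), 392 to 401 and 462 to 505 CPM for neutrophil markers (6 of 10 higher) and 61.0 to 70.9 and 94.3 to 101 CPM for erythroid and megakaryocyte markers (1 of 3 higher). They were 84.3 to 92.7 and 78.1 to 83.9 CPM for stromal and endothelial markers (5 higher and 1 lower of 11). For lymphocyte markers they were 13.3 to 14.2 and 15.9 to 18.1 CPM (1 of 5 higher). For dendritic cell markers they were 14.5 to 15.7 and 14.7 to 16.3 CPM (0 of 5). Most of the stromal and endothelial sum was Pecam1, the 1 lower marker, whose mean fell from 74.8 to 60.1 CPM. The median log2 fold change of the 11 was 0.76, and Col1a2, Col3a1, Col6a1, Col6a2 and Dcn were the 5 higher. Single genes also made up most of other sums, at WT means of 243 (Csf3r), 65.8 (Pf4), 11.2 (Cd4) and 11.9 CPM (Itgax). A sum therefore need not show the direction of most markers in its set. The part of other cells in the results on synthetases was not tested, and in bulk RNA fewer cells of a type and less RNA per cell cannot be told apart.

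The falls in AEG-1 KO macrophages were small and were all among cytosolic members. Of the 20 cytosolic members 8 fell, namely Cars, Aars, Yars, Iars, Mars, Gars, Sars and Eprs, by 13.2% to 21.4%, and none rose. Of all 16115 genes tested, 3.04% were called lower and 3.31% higher in AEG-1 KO. The log2 fold change was below 0 in 19 of the 20 cytosolic members, with a median of −0.18 (range −0.35 to 0.08), while the median over all genes tested was 0.01 and 46.9% of them were below 0. None of the 17 mitochondrial members was called in edgeR, DESeq2 or limma-voom, and 1, lower in AEG-1 KO, had an unadjusted p under 0.05 (10.3% of all genes tested were lower at that p), while edgeR called 6.35% of all genes in either direction. Their median log2 fold change was −0.05, with 11 below 0 and 6 above. Without WT replicate 2 the cytosolic count was 5, as Mars, Gars and Eprs were no longer called.

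**Figure D1:**
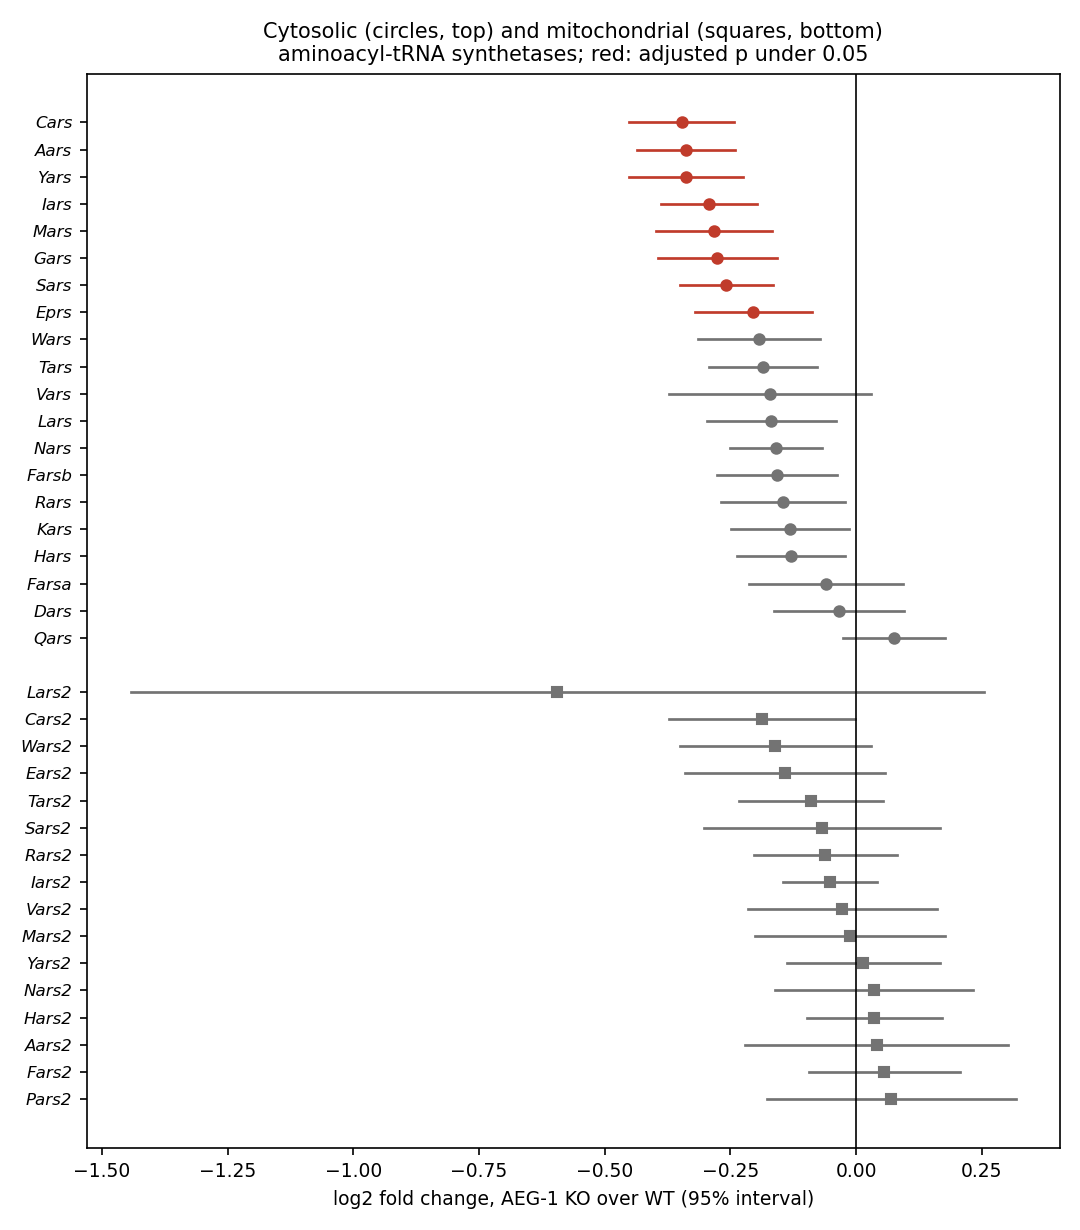
Log2 fold change in AEG-1 KO over WT of 36 synthetase genes, with its 95% confidence interval from edgeR (n = 3 libraries per genotype); circles are cytosolic and squares mitochondrial members, and red marks an adjusted p under 0.05. The 8 red members are all cytosolic and lie left of 0, 16 of the 20 cytosolic intervals lie wholly below 0, and 15 of the 16 mitochondrial intervals drawn include 0.

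The alanine, cysteine and tyrosine enzymes had the largest falls. Cars, which charges cysteine tRNA (ENSMUSG00000010755, chr7:143557230-143600090), measured 69.7, 72.2 and 70.7 CPM in the WT libraries and 57.6, 53.6 and 55.9 CPM in the AEG-1 KO libraries. Every AEG-1 KO library was below every WT library, and Cars fell by 0.35 on the log2 scale (SE 0.046, edgeR adjusted p = 0.00274). Aars (ENSMUSG00000031960, chr8:111033144-111057664), the alanine enzyme, measured 292, 301 and 283 CPM in WT and 238, 223 and 231 CPM in AEG-1 KO. The groups were again apart, with a fall of 0.34 (SE 0.043, edgeR adjusted p = 0.00222). Yars, the tyrosine enzyme (ENSMUSG00000028811, chr4:129189760-129219607), stood at 49.4, 50.4 and 50.5 CPM in WT and at 41.1, 40.2 and 37.6 CPM in AEG-1 KO. WT libraries of Yars lay close together and all above the AEG-1 KO libraries, and the fall was 0.34 (SE 0.050, edgeR adjusted p = 0.00473).

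The other called members with no place in the complex were Sars and Gars. Sars, which charges serine tRNA and also starts the selenocysteine route (ENSMUSG00000068739, chr3:108424865-108445209), measured 144, 152 and 147 CPM in WT and 122, 123 and 126 CPM in AEG-1 KO. The groups did not overlap, and Sars fell by 0.26 (SE 0.041, edgeR adjusted p = 0.00676). Gars (ENSMUSG00000029777, chr6:55038007-55079500), which serves both compartments, measured 112, 118 and 121 CPM in WT and 100.1, 98.6 and 91.1 CPM in AEG-1 KO. It was lower in every AEG-1 KO library, with a fall of 0.28 (SE 0.052, edgeR adjusted p = 0.0154), and was no longer called when WT replicate 2 was left out, or when either AEG-1 KO replicate 2 or 3 was. With Gars and Kars set aside, 7 of 18 cytosolic members fell.

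Of the 8 catalytic members of the multi-tRNA synthetase complex (Eprs, Iars, Lars, Mars, Qars, Rars, Kars and Dars), 3 fell. Iars, the isoleucine enzyme (ENSMUSG00000037851, chr13:49682100-49734267), measured 96.7, 100.3 and 101 CPM in WT and 82.8, 80.8 and 80.2 CPM in AEG-1 KO, a fall of 0.29 without overlap (SE 0.042, edgeR adjusted p = 0.00438). Mars, the methionine enzyme (ENSMUSG00000040354, chr10:127296221-127311786), measured 60.9, 61.2 and 56.2 CPM in WT and 49.4, 49.7 and 47.4 CPM in AEG-1 KO. It was lower in all 3 AEG-1 KO libraries and fell by 0.28 (SE 0.051, edgeR adjusted p = 0.0121), a call that was lost without WT replicate 2. Eprs, a fused enzyme that charges both glutamate and proline tRNAs (ENSMUSG00000026615, chr1:185363044-185428360), measured 229.6, 227 and 243 CPM in WT and 210.3, 208 and 189 CPM in AEG-1 KO. It did not overlap between groups and fell by 0.20 (SE 0.051), but its edgeR adjusted p of 0.0495 was at the threshold and the call was lost when any 1 library was left out.

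The remaining 5 enzymes of the complex were not called. Qars, the glutamine enzyme, was the 1 cytosolic member above 0, at 119, 128 and 123 CPM in WT and 131, 126 and 133 CPM in AEG-1 KO. These ranges overlapped (log2 fold change 0.08, edgeR adjusted p = 0.383). Dars, the aspartate enzyme, also overlapped, at 109, 112 and 121 CPM in WT and 113, 117 and 104 CPM in AEG-1 KO, with a log2 fold change of −0.03. Lars, Rars and Kars, for leucine, arginine and lysine, had log2 fold changes of −0.17, −0.15 and −0.13, and of these only Lars did not overlap. The complex members had a median log2 fold change of −0.16, and the 12 cytosolic members outside the complex, of which 5 fell, had −0.19. The noncatalytic scaffold genes of the complex, Aimp1, Aimp2 and Eef1e1, had log2 fold changes of −0.07, −0.20 and −0.08, and none of the 3 was called. Synthetases also split into 2 structural classes by the fold of the catalytic site. Of 9 cytosolic genes of class I, 4 fell (median −0.19), and of 10 of class II, 3 fell (median −0.16), with Eprs holding a domain of each.

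**Figure D2:**
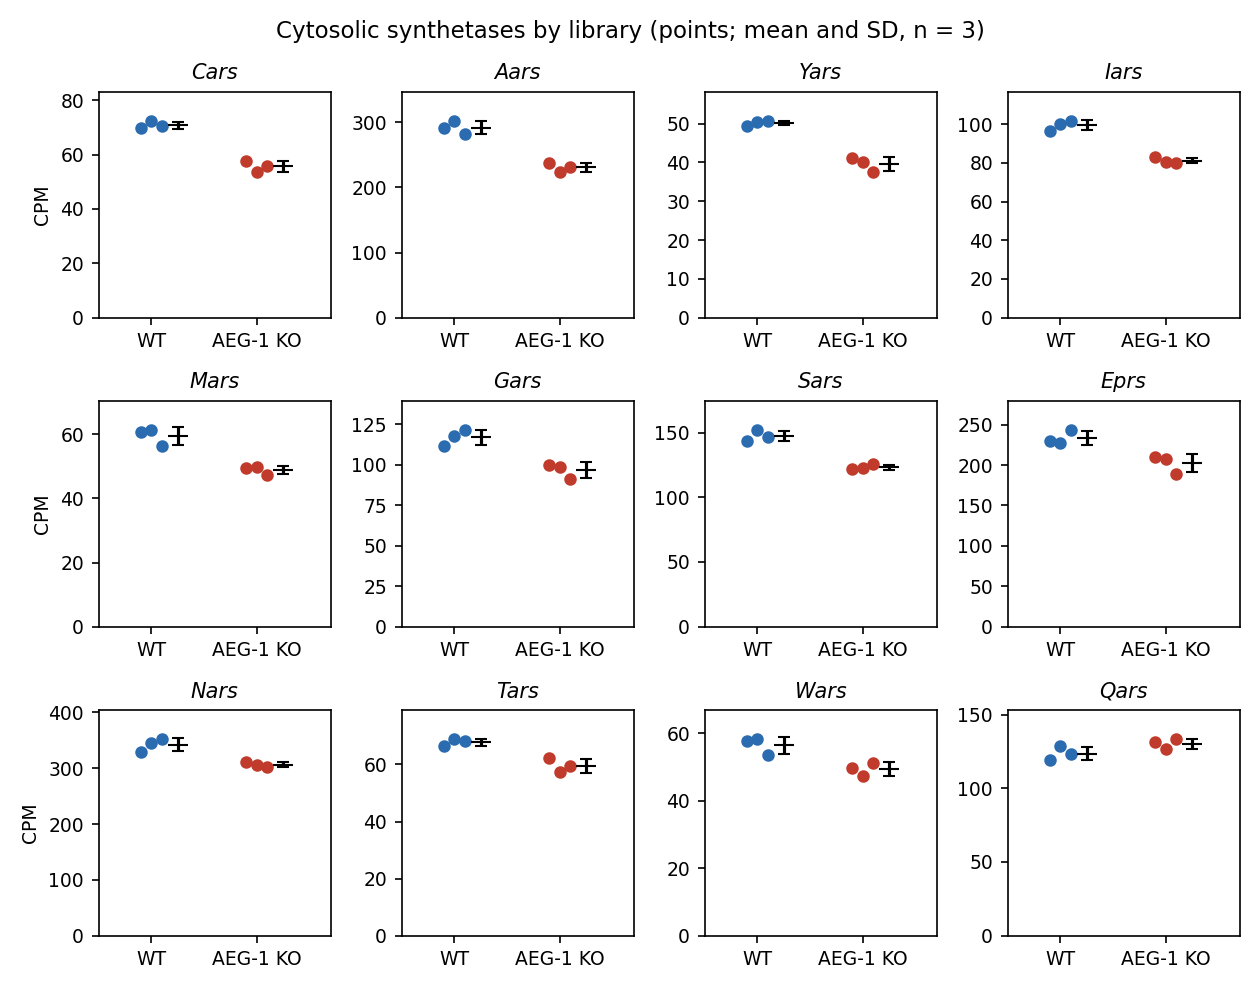
CPM of 12 cytosolic synthetase genes in each library, with WT in blue and AEG-1 KO in red, replicates 1 to 3 from left to right, and the mean and SD (n = 3) beside them; each vertical axis starts at 0. The genes drawn are the 8 called, the uncalled Nars, Tars and Wars, and Qars, so the panels are not a sample of the family. The first 11 panels show AEG-1 KO libraries below all WT libraries, while in Qars the groups overlap. Of all 20 cytosolic members, 14 were lower without overlap, beside 12.9% of all genes tested.

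Several uncalled cytosolic genes lay close to the threshold. Nars, the asparagine enzyme, measured 329.6, 346 and 352 CPM in WT and 311, 306 and 302 CPM in AEG-1 KO, so that the groups did not overlap (log2 fold change −0.16, edgeR adjusted p = 0.0508). Tars measured 66.3, 68.8 and 68.2 CPM in WT and 62.2, 57.3 and 59.3 CPM in AEG-1 KO, again without overlap (log2 fold change −0.18, edgeR adjusted p = 0.0536). Tars lies on chromosome 15 as Mtdh does, 22.7 Mb away. Wars, the tryptophan enzyme, measured 57.7, 58.2 and 53.5 CPM in WT and 49.6, 47.2 and 51.3 CPM in AEG-1 KO (log2 fold change −0.19, edgeR adjusted p = 0.0678). Vars, for valine, spread from 48.8 to 62.8 CPM within WT and overlapped with AEG-1 KO at 45.9 to 52.0 CPM. Farsa and Farsb encode the alpha and beta subunits of 1 phenylalanine enzyme. Farsb did not overlap between groups (log2 fold change −0.16, edgeR adjusted p = 0.123) and Farsa did (−0.06, edgeR adjusted p = 0.669). Hars, for histidine, had a log2 fold change of −0.13 without overlap. In all, 14 of the 20 cytosolic members were lower in every AEG-1 KO library than in any WT library, and 12.9% of all genes tested were.

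Mitochondrial members lay around 0 with intervals of unequal width. Iars2, the isoleucine enzyme of mitochondria and the one with the smallest standard error, stood at 79.5, 81.9 and 82.5 CPM in WT and 78.1, 79.2 and 78.0 CPM in AEG-1 KO. The groups were just apart, with a log2 fold change of −0.05 (95% interval −0.14 to 0.04, edgeR adjusted p = 0.523), an interval that does not reach the cytosolic median of −0.18. Cars2, the mitochondrial cysteine enzyme, measured 11.7, 10.8 and 10.1 CPM in WT and 8.88, 9.98 and 9.73 CPM in AEG-1 KO. It was the 1 mitochondrial member with an unadjusted p under 0.05 (log2 fold change −0.19, edgeR adjusted p = 0.227). Ears2 was also lower in every AEG-1 KO library, with a log2 fold change of −0.14. In all, 4 of 17 were lower without overlap and none higher without overlap, beside 12.9% of all genes tested lower without overlap and 26.8% apart in either direction. Wars2, Tars2, Sars2, Rars2, Vars2 and Mars2 overlapped, at −0.16, −0.09, −0.07, −0.06, −0.03 and −0.01. Yars2, Nars2, Hars2, Aars2, Fars2 and Pars2 were the 6 above 0, from 0.01 to 0.07, and all overlapped. The median standard error was 0.083 in mitochondrial and 0.051 in cytosolic members, whose lowest counts in any library were 184 and 1687 reads. Of the 17 mitochondrial intervals, 6 lay wholly above the cytosolic median and 11 included it, so in most of these genes a change of the cytosolic size was not resolved.

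Lars2, the mitochondrial leucine enzyme (ENSMUSG00000035202, chr9:123366927-123462666), stood apart in its spread. It measured 433, 159.8 and 229 CPM in WT and 157, 274 and 113 CPM in AEG-1 KO. WT replicate 1 was the highest and AEG-1 KO replicate 2 the next, the groups overlapped, and the log2 fold change of −0.59 had an SE of 0.376 (edgeR adjusted p = 0.410), while no other mitochondrial member had an SE above 0.116. It was −0.12 without WT replicate 1, −1.02 without AEG-1 KO replicate 2 and −0.36 without AEG-1 KO replicate 3. Gm15564, a gene picked after its values were seen, shares a stretch of 72 bases at 98.6% identity with the 3′ untranslated part of a Lars2 transcript. It measured 252, 64.9 and 120.5 CPM in WT and 98.3, 172 and 62.2 CPM in AEG-1 KO, so the 3 highest libraries and the lowest were the same for both genes. The part of shared sequence in the Lars2 counts was not tested. Without Lars2, the median of the 16 other mitochondrial members was −0.04.

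**Figure D3:**
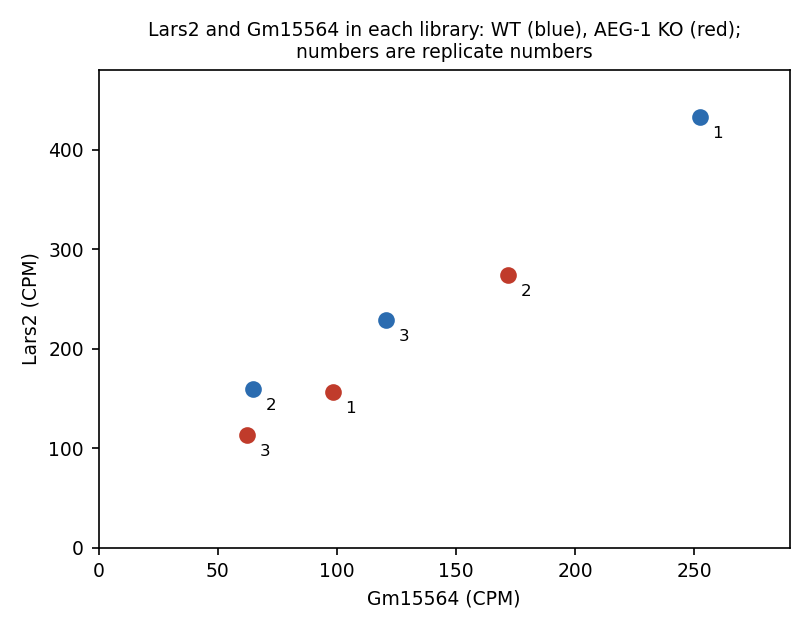
Lars2 against Gm15564 in the 6 libraries, both in CPM, with WT in blue, AEG-1 KO in red and replicate numbers beside the points. WT replicate 1 is highest in both genes (433 and 252 CPM) and AEG-1 KO replicate 3 lowest in both (113 and 62.2 CPM).

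Levels were compared between genes as CPM per kilobase of exon, with all annotated exons of a gene merged. The order therefore depends on the exons annotated for each gene, and lengths of the transcripts present were not measured. In WT, Nars was the most abundant synthetase transcript at 78.6 ± 2.62 CPM per kb (SD, n = 3), above the range of every other member. Gars followed at 37.5 ± 1.55 and Rars at 35.0 ± 1.60 CPM per kb, whose libraries overlapped, then Aars at 31.5 ± 1.01 and Sars at 28.7 ± 0.774 CPM per kb. Sars, Farsb, Dars and Lars2 each overlapped with the next in order, as did Iars with Qars, Mars with Lars, Lars with Kars, Kars with Wars, Cars with Vars, Vars with Rars2, Rars2 with Farsa and Farsa with Iars2. Yars was the lowest cytosolic member at 8.43 ± 0.101 CPM per kb. The median WT level was 18.1 CPM per kb over cytosolic and 2.69 CPM per kb over mitochondrial members. Lars2 apart, the highest mitochondrial levels were those of Rars2 at 9.68 ± 0.562 and Iars2 at 9.15 ± 0.178 CPM per kb, and the lowest was that of Mars2 at 0.492 ± 0.025 CPM per kb.

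**Figure D4:**
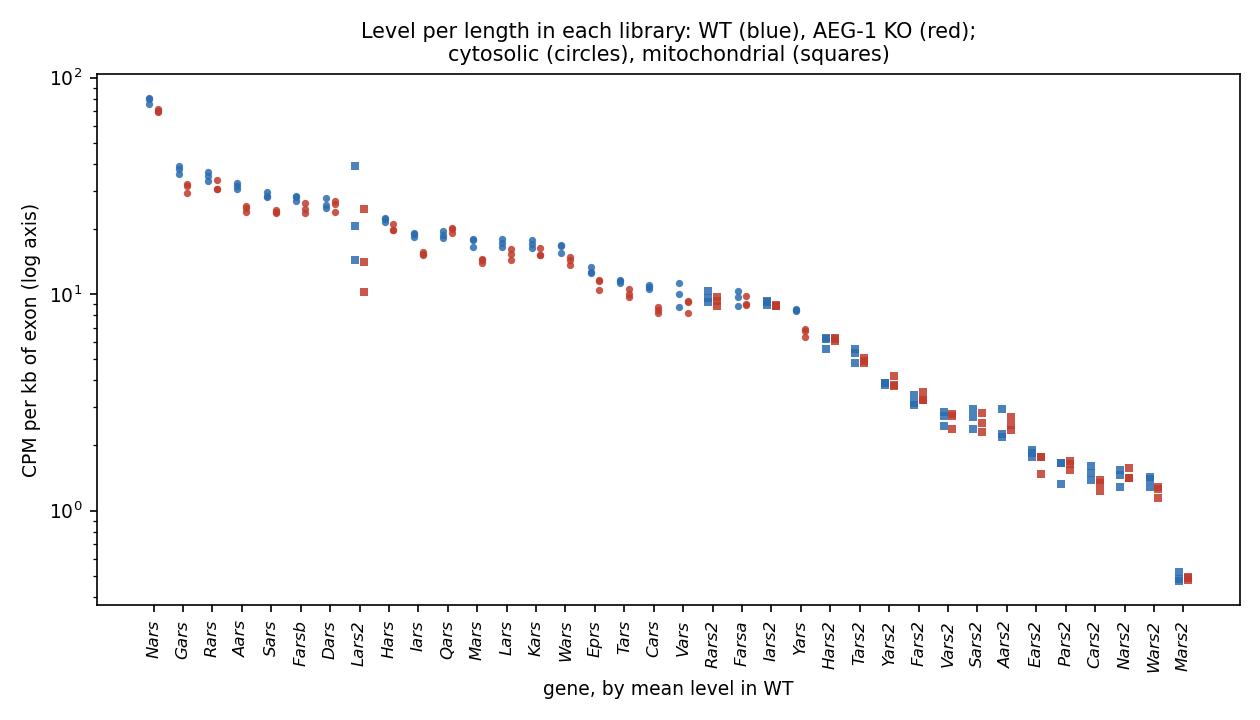
Level per length of 36 synthetase genes in each library (CPM per kb of exon, log axis), ordered by mean WT level, with WT in blue, AEG-1 KO in red, cytosolic genes as circles and mitochondrial genes as squares. Nars is highest at 78.6 and Mars2 lowest at 0.492 CPM per kb in WT, and Lars2 has the widest spread between libraries of one genotype.

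Summed over the 20 cytosolic genes, the level was 456 ± 8.31 CPM per kb in WT and 402 ± 9.22 CPM per kb in AEG-1 KO (SD, n = 3), which is 88.1% of the WT mean. The 3 AEG-1 KO sums, from 394 to 412, lay below the WT sums, from 447 to 462. The mitochondrial sum was 82.1 ± 12.7 in WT and 72.4 ± 7.09 CPM per kb in AEG-1 KO, and Lars2 made up 15.3% to 40.5% of it, depending on the library. Without Lars2 it was 57.4 ± 0.200 in WT and 56.0 ± 0.682 CPM per kb in AEG-1 KO, which is 97.5% of the WT mean. These AEG-1 KO sums, from 55.5 to 56.8, also lay below the WT sums, from 57.2 to 57.6. The ratio of the cytosolic to the mitochondrial sum was 5.65 ± 0.916 in WT and 5.59 ± 0.536 in AEG-1 KO with Lars2, and 7.94 ± 0.141 and 7.17 ± 0.240 without it, so the groups overlapped with Lars2 counted and were apart without it.

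Pairs of enzymes for the same amino acid were compared by the log2 ratio of the mitochondrial to the cytosolic gene in each library, in 18 pairs. Eprs was paired with both Ears2 and Pars2, and Fars2 with both Farsa and Farsb, so pairs share genes. The ratio was higher in AEG-1 KO in 16 of 18 pairs, with a median difference of 0.17, and 9 pairs were higher without overlap between groups. Of single genes tested, 26.8% were apart in either direction, and the share among ratios of other gene pairs was not measured. Each ratio also holds the change of its cytosolic gene given above, so the pairs are not a separate result. With 3 libraries against 3, the exact two-sided permutation test cannot give a p below 0.1 (0.2 after Benjamini-Hochberg adjustment over the pairs), so no pair could pass the threshold. Yars2 over Yars differed by 0.35 (−2.03 ± 0.029 in WT and −1.68 ± 0.094 in AEG-1 KO, SD, n = 3, exact permutation p = 0.1), and Iars2 over Iars by 0.24 (−0.29 ± 0.008 and −0.05 ± 0.030, exact permutation p = 0.1). Mars2 over Mars and Pars2 over Eprs differed by 0.27 and 0.29, both without overlap. The largest difference was that of Aars2 over Aars, 0.39, but its libraries overlapped (exact permutation p = 0.2). Lars2 over Lars lay below 0, at −0.40, and overlapped.

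**Figure D5:**
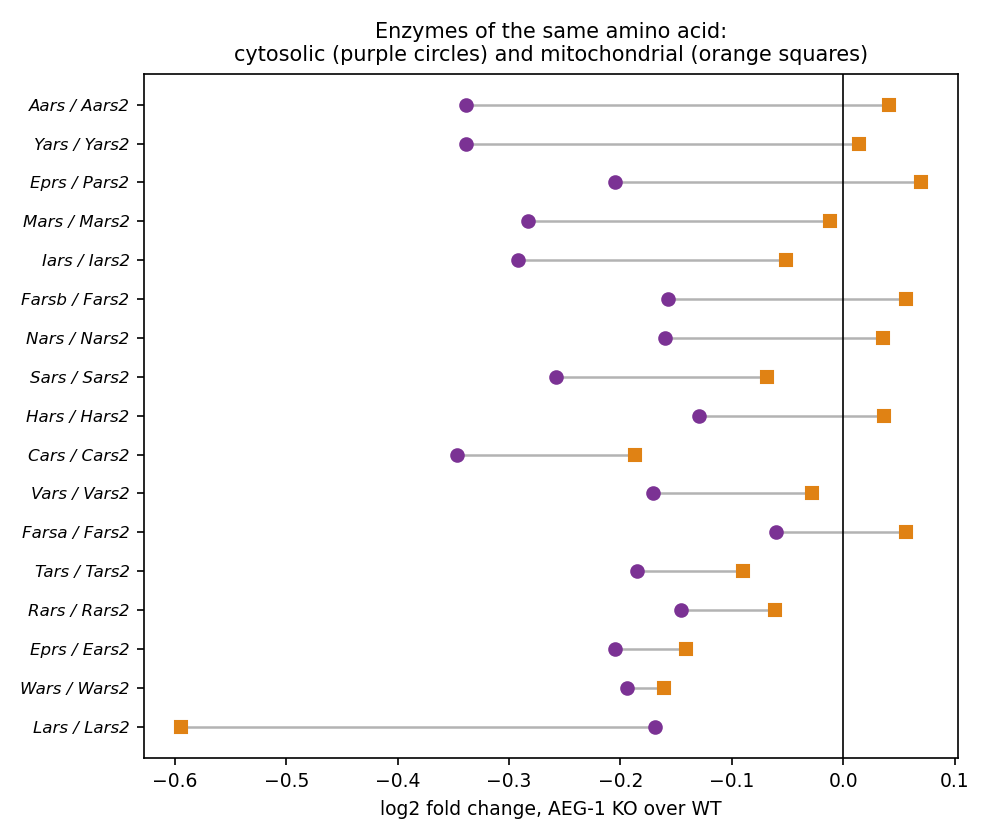
Log2 fold change in AEG-1 KO over WT of the cytosolic (purple circles) and mitochondrial (orange squares) gene of each of 17 same-amino-acid pairs. The square lies right of the circle in 16 pairs, and left of it for Lars with Lars2.

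Genes that act beside the synthetases were given as lists for the same contrast. Of 66 genes of the complex scaffolds, proofreading, selenocysteine synthesis, other routes of mitochondrial charging, cytosolic and mitochondrial translation factors, tRNA export and processing, and the kinases and regulators of the integrated stress response, none was called in edgeR, with list medians from −0.08 to 0.04. At an unadjusted p under 0.05, 8 of the 66 were lower and 2 higher, beside 10.3% lower and 11.2% higher of all genes tested, and DESeq2 called Eif5a and Gfm1 lower (log2 fold changes −0.20 and −0.20) and limma-voom none. Of 37 tested amino acid response genes, which were Atf4 and known ATF4 targets with synthetases left out, 17 fell, none rose and 20 were not called. Their median log2 fold change was −0.29, and 3.04% of all genes tested were called lower and 3.31% higher. Xpot, which was not called, was counted both here and among the 66 genes. Atf4 itself was among those that fell, by 0.18 (edgeR adjusted p = 0.0208). The genes named next had the smallest adjusted p of the list. Mthfd2, a mitochondrial enzyme of folate metabolism, fell by 0.60 (edgeR adjusted p = 0.000252), Slc7a5, an importer of large neutral amino acids, by 0.76 (edgeR adjusted p = 0.000394) and Asns, asparagine synthetase, by 0.58 (edgeR adjusted p = 0.000543). Asns measured 71.1, 75.9 and 79.2 CPM in WT and 50.1, 52.7 and 48.6 CPM in AEG-1 KO, with every AEG-1 KO library below every WT library. These libraries are the same as those in which the synthetases were measured, and the lists were chosen with earlier results of these data known.

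Some members share bases with other genes, and no source used here states the strand setting of the counting. Aars shares 1326 exonic bases with Exosc6 on the same strand. Iars is near-identical over 1656 bases to the pseudogene Gm4849, itself at −0.24 on the log2 scale (edgeR adjusted p = 0.0530). Mars shares 68 exonic bases with Ddit3 on the opposite strand, and Ddit3, a stress-induced transcription factor gene, was at −0.03 on the log2 scale (edgeR adjusted p = 0.843). Hars and Hars2 lie head to head and share 195 bases on opposite strands. Cars shares 211 exonic bases with Gm15580, Cars2 422 with Naxd, and Iars2 2148 with Rab3gap2 and 2010103J01Rik, all on opposite strands. Transcripts of Eprs and Yars hold repeats of up to 207 and 221 bases found in 87 and 37 other genes. Where reads could be split between such genes, the counts of these members are uncertain.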

How the data were processed

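Total RNA of 6 macrophage libraries was sequenced after Illumina TruSeq preparation, per the labels' protocols. The authors deposited raw read counts per Ensembl gene, per the file headers. Per the submitters' processing notes, the tools were featureCounts 1.4.6-p4, Subread, edgeR 3.18.1, cutadapt 1.9 and FastQC 0.11.2, and the builds GRCm38 and mm10. Neither annotation release nor strand setting is stated in the sources used here.

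Of 46983 identifiers 46488 matched a symbol in GENCODE mouse release 21 (GRCm38). After filterByExpr at a minimum count of 10, the 16115 remaining genes were TMM-scaled and compared by genotype alone in edgeR 4.0.16 (quasi-likelihood test, R 4.3.3). Calls were made at a Benjamini-Hochberg adjusted p of 0.05 over these genes. CPM use TMM factors, and levels per kb use merged exons. Near-identical genes shared at least 95% identity over at least 100 bases (BLAST+ 2.17.0). Every member is named, with Mtdh and up to 3 called genes of each other list with the smallest adjusted p where a list is described; any other gene was picked after its values had been seen. The members and lists were chosen with earlier results of these data known. No library duplicated another (chi-square per degree of freedom 5.58 to 19.3 within a genotype). On simulated AEG-1 KO against WT data over 15971 genes, the fit recovered 90.9% of log2 changes of 1 and 64.6% of 0.5, and 3.75% of 160 calls were false. Smaller changes, such as those of the called synthetases, were not simulated. Alternatives were RLE and upper-quartile scaling, other filters, DESeq2, limma-voom, a length and GC correction, a replicate block, leaving out each library and, chosen after seeing the data, the mitochondrial set without Lars2. Some items, among them 1 mitochondrial member counted in the totals, are not reported here by name.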

Additional observations from a re-analysis of the deposited data

How the results depend on the processing

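Cytosolic calls numbered 7 to 11 under other scaling, filters, DESeq2 and limma-voom. In these, 988 to 1287 genes were called in all, from 3.68% of genes tested with no filter to 9.23% in DESeq2, which gave the 11. With the length and GC trend removed, cytosolic calls were 15 (2114 genes called in all, 13.1%, against 1023, 6.35%). They were 5 to 8 when 1 library was left out (380 to 1092 genes in all, 2.32% to 6.65%). In all, 441 genes were called without WT replicate 2, and 667, 380 and 606 without AEG-1 KO replicates 1, 2 and 3. No mitochondrial member was called under any of the 14 alternatives. Replicate numbers did not pair the libraries (correlations of same-numbered deviations −0.27, −0.17 and −0.25). Between differently numbered libraries of the 2 genotypes, the correlations ran from 0.057 to 0.19. With a replicate block, which leaves 2 residual degrees of freedom in place of 4, cytosolic calls were 0 and all calls 227. Cars, Aars, Yars, Iars and Sars were called in every alternative except the block. The mitochondrial median ranged from −0.072 to −0.025 and its distance above the cytosolic median from 0.11 to 0.18 when 1 library was left out.

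None of the 8 called members changed sign. Among the others, 9 did. With the length and GC trend removed, Aars2 was −0.0032. When 1 library was left out, values ran from −0.077 to 0.0036 in Dars (0.0034 without AEG-1 KO replicate 3), −0.15 to 0.0031 in Sars2, −0.086 to 0.041 in Vars2, −0.044 to 0.016 in Mars2, −0.040 to 0.041 in Yars2, −0.045 to 0.098 in Nars2, −0.025 to 0.063 in Hars2, −0.036 to 0.17 in Aars2 and −0.035 to 0.13 in Pars2. The cause was not tested.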
